A study of Mus musculus with 24 samples.

Results

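Glycogen metabolism was followed through 9 genes that make glycogen, break it down, or bring protein phosphatase 1 (PP1) to it, in inguinal white fat of mice with a wild-type or a gain-of-function AMP-activated protein kinase (AMPK). The genes are Ugp2, Gys1, Gys2, Gbe1, Pygl, Pygb, Ppp1r3b, Ppp1r3c and Ppp1r3d. They were found by gene symbol in both deposited count tables, and all 9 were present among the 38013 genes that the tables share. Their values in these libraries were known when the genes were picked, so the levels and fold changes of these 9 are given as descriptions, without p-values.

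Every mouse was of the C57BL/6J strain and carried an AMPKγ1 transgene. The WT-Tg groups carried the wild-type subunit and the D316A-Tg groups its gain-of-function D316A form, so no group here lacks a transgene. Chow-fed mice were 16 weeks old, and mice on a high-fat diet (HFD) with 45% fat were 24 weeks old. Each of the 4 groups has 6 libraries of messenger RNA from whole tissue. The labels say that the lymph node was removed, but B lymphocyte transcripts were high in 11 of the 24 libraries. The promoter that drives the transgene is not given in the sources used here, nor whether the 6 libraries of a group are separate animals. The p-values therefore rest on the spread among these 6 libraries, part of which may be technical. Age, diet, count table and base-calling software differ together between the chow and HFD libraries and cannot be told apart in any comparison of the diets.

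Glycogen is a branched polymer of glucose. Ugp2 makes UDP-glucose, the activated sugar, glycogen synthase (Gys1, the form of muscle and most tissues, and Gys2, the form best known from liver) adds it to the growing chain, and Gbe1 makes the branches. Glycogen phosphorylase (Pygl, named for liver, and Pygb, named for brain) releases glucose phosphate again. PP1 activates the synthase and inactivates the phosphorylase by removing phosphate, and Ppp1r3b, Ppp1r3c and Ppp1r3d encode subunits that hold PP1 at the glycogen particle. AMPK is known to phosphorylate glycogen synthase, and its β subunits carry a carbohydrate-binding module. White fat keeps a small glycogen store that turns over with feeding.

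Sequence just upstream of the start sites is shown for 3 of the genes because their D316A-Tg to WT-Tg differences were unlike. Gbe1 had a log2 fold change of 1.21 ± 0.31 (SE) on chow, Ppp1r3c one of 1.37 ± 0.40 on HFD, where its groups overlapped and it did not pass the test, and Ppp1r3d one of -1.0 ± 0.12 on HFD. The stretches are from RefSeq on build GRCm38.p6, read 5′ to 3′ on the gene's own strand, and capitals mark CACGTG, the palindromic E-box. For Gbe1 the stretch is chr16:70313699-70313948 on the plus strand, and for Ppp1r3c it is chr19:36736654-36736854 on the minus strand. For Ppp1r3d it is chr2:178414672-178414701 on the minus strand, a 30-base window inside the neighbouring gene Fam217b.
Gbe1: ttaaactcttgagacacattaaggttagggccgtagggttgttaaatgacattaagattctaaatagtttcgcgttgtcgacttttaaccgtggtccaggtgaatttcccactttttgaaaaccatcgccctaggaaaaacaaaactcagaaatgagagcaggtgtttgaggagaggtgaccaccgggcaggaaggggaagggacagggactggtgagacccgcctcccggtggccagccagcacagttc
Ppp1r3c: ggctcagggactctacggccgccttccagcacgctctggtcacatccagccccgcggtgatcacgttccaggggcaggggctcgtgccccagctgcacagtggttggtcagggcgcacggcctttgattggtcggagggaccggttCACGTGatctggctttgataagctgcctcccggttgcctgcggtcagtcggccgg
Ppp1r3d: gcagcctgaacaCACGTGacgaggttcccg
The E-box begins 104 bases before the RefSeq start of Ppp1r3c and 226 bases before that of Ppp1r3d. The Ppp1r3c stretch shown has 201 bases. It ends where an annotated exon begins, short of the RefSeq start, so the distance cannot be counted from its last letter. RefSeq promoter entries matched 7 of the 9 genes, giving 8 windows because Ugp2 has a pair of start sites; Gys2 and Ppp1r3b had no entry. CACGTG, searched on both strands of the 250 bases before the start, was in 2 of these 8 windows and in 6.02% of the 32851 mouse promoters in the same table. The cAMP response element TGACGTCA was in 0 of the 8 windows and in 1.55% of all promoters. The GC box GGGCGG was in 5 of 8 windows (32.7% of all promoters) and CCAAT in 3 of 8 (33.8%). These are matches of letters, and nothing was measured here of any factor's binding.

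Library totals ran from 13254536 to 22748132 counts. Levels are library-scaled read counts (CPM) on a common TMM scale over the 24 libraries, and a group is described by its lowest, median and highest library. Adipoq, the adipocyte hormone that marks the labelled tissue, was at 1170 to 4850 CPM in all 24 libraries. Transcripts of other cell types varied widely. The 8 B lymphocyte genes with counts, which include the B cell receptor component Cd79a, had high summed levels on chow in WT-Tg 1, 2, 3 and 4 and D316A-Tg 8 and 11. On HFD they were high in WT-Tg 3 and D316A-Tg 7, 8, 9 and 11, and these 11 libraries are called lymphocyte-rich. Their B lymphocyte genes summed to 164 to 1420 CPM, against 2.22 to 32.3 CPM in the other 13, which goes against the labelled removal of the lymph node. The 18 skeletal muscle genes summed to 31.6 to 13600 CPM in WT-Tg and 35.8 to 602 CPM in D316A-Tg on chow. On HFD they summed to 51.7 to 291 CPM in WT-Tg and 304 to 27400 CPM in D316A-Tg. These sums did not overlap, but the muscle score, the mean log2 CPM of these genes, did. It was 3.1 in WT-Tg 5 and 3.05 in D316A-Tg 12. In whole tissue, fewer cells of a type and less RNA per cell cannot be told apart.

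**Figure D1:**
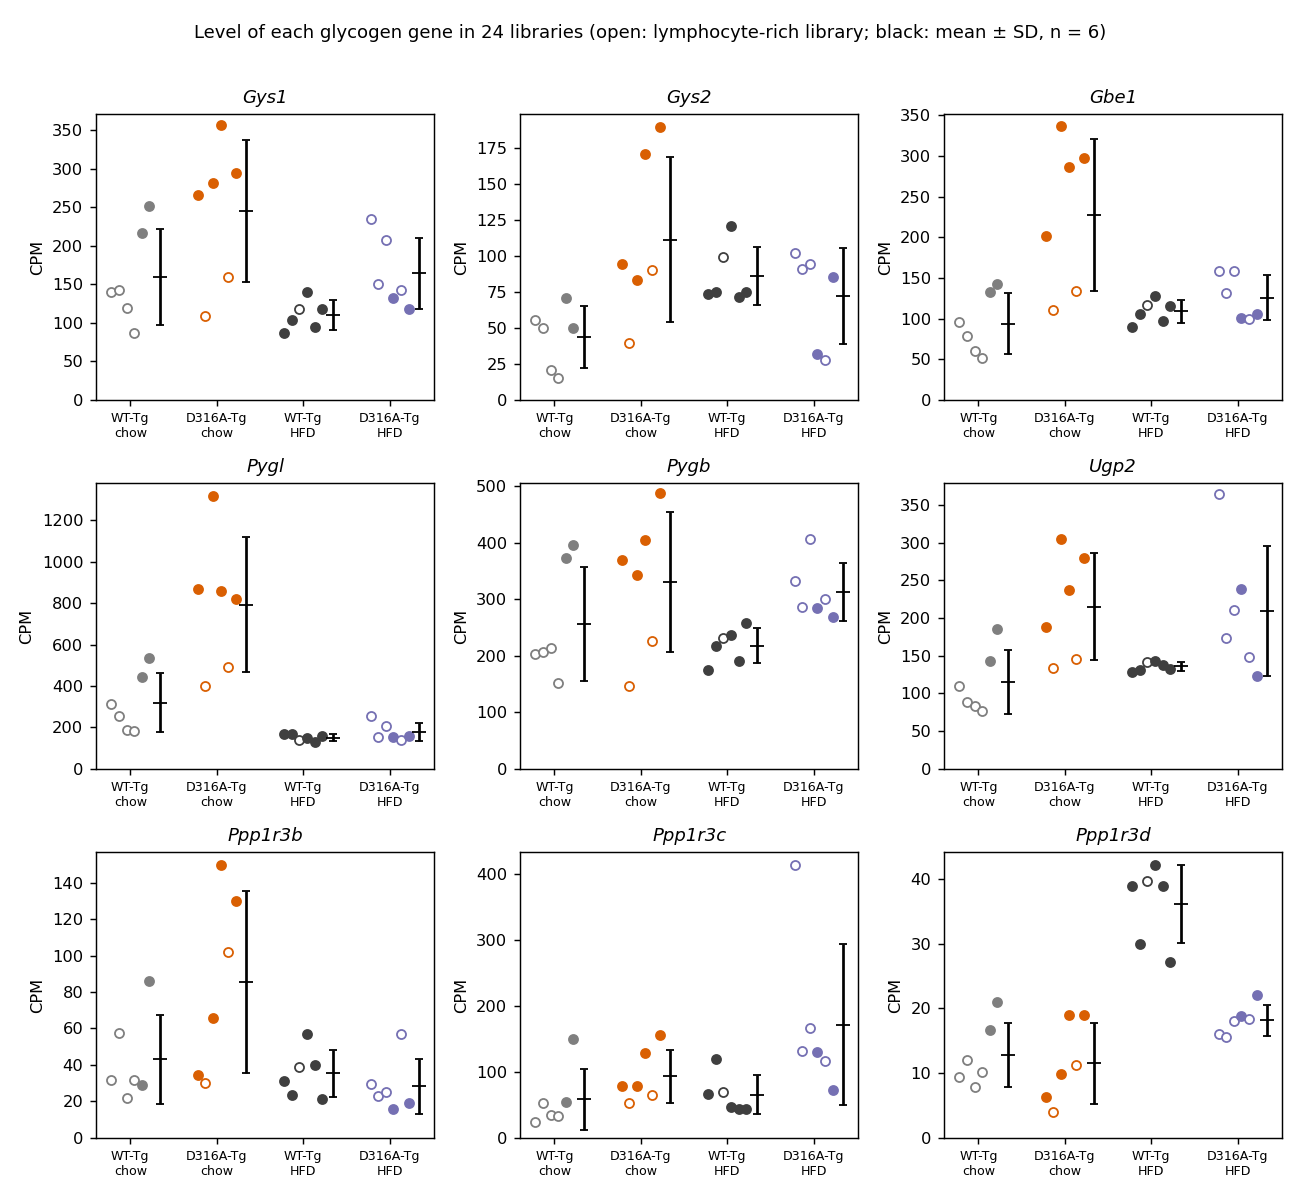
Level of each of the 9 glycogen genes in CPM (linear axis from 0) in the 24 libraries, by group, with the mean ± SD of 6 libraries in black and lymphocyte-rich libraries as open circles. Pygl is far higher on chow than on HFD in D316A-Tg, and Ppp1r3d is highest in WT-Tg on HFD, where its 6 libraries lie above those of every other group.

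Synthesis begins with Ugp2 (chromosome 11, 21321138 to 21371201, minus strand, GRCm38). Its levels were 76.3, 99.1 and 186 CPM (lowest, median, highest) in WT-Tg and 133, 213 and 305 CPM in D316A-Tg on chow. On HFD they were 128, 135 and 143 CPM in WT-Tg and 123, 192 and 364 CPM in D316A-Tg. The D316A-Tg libraries were mostly the higher ones on each diet, and the groups overlapped on both. The log2 fold change of D316A-Tg over WT-Tg was 0.84 ± 0.24 (SE) on chow and 0.61 ± 0.21 on HFD. The WT-Tg group on HFD was tight, at 136 ± 5.95 CPM (SD, n = 6), while D316A-Tg on HFD spread over 210 ± 86.4 CPM. Its highest library, D316A-Tg 7, was also the library with the most muscle transcripts of the 24.

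Gys1 (chromosome 7, 45434844 to 45456619, plus strand), the synthase of muscle and most tissues, was at 86.8, 141 and 252 CPM in WT-Tg and 109, 274 and 357 CPM in D316A-Tg on chow. On HFD the levels were 86.5, 111 and 140 CPM in WT-Tg and 118, 146 and 235 CPM in D316A-Tg. The D316A-Tg medians were the higher on each diet, and the groups overlapped. D316A-Tg over WT-Tg was at 0.55 ± 0.29 (log2) on chow and 0.56 ± 0.17 on HFD. Of its exon length, 6.5% overlaps Ruvbl2 on the other strand, and whether counting used strand is not given in the sources used here.

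Gys2 (chromosome 6, 142422613 to 142473109, minus strand), the synthase best known from liver, was at 15.2, 50 and 70.9 CPM in WT-Tg on chow, the lowest of its 4 groups by mean. D316A-Tg on chow had 39.6, 92.5 and 190 CPM. On HFD the means were in the opposite order (86.1 in WT-Tg, 72.1 in D316A-Tg) and the medians in the same order as on chow, with 71.8, 75.3 and 121 CPM in WT-Tg and 27.7, 88.3 and 102 CPM in D316A-Tg. As a log2 fold change this was 1.27 ± 0.41 on chow and -0.27 ± 0.31 on HFD. The 2 low libraries of the last group, D316A-Tg 10 at 31.8 CPM and 11 at 27.7 CPM, lay below all 6 WT-Tg libraries on HFD.

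Gbe1 (chromosome 16, 70313949 to 70569716, plus strand), the branching enzyme, was at 51.9, 86.9 and 143 CPM in WT-Tg and 110, 243 and 337 CPM in D316A-Tg on chow. On HFD it was at 89.5, 110 and 128 CPM in WT-Tg and 99.9, 118 and 159 CPM in D316A-Tg. On chow, 4 D316A-Tg libraries were above every WT-Tg library and the other two, both lymphocyte-rich, were not. On HFD the groups had nearly the same medians. Its log2 fold change was 1.21 ± 0.31 on chow, a mean of 93.5 against 228 CPM, and 0.20 ± 0.14 on HFD.

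The phosphorylase Pygl (chromosome 12, 70190811 to 70231488, minus strand) was lower in every HFD library than in any chow library of the same genotype. Its levels on chow were 183, 285 and 537 CPM in WT-Tg and 401, 840 and 1320 CPM in D316A-Tg. On HFD they were 130, 153 and 167 CPM in WT-Tg and 141, 155 and 253 CPM in D316A-Tg. The 4 D316A-Tg libraries on chow that were not lymphocyte-rich lay above all 6 WT-Tg libraries, and on HFD the 2 medians nearly coincided. The log2 fold change of D316A-Tg over WT-Tg was 1.24 ± 0.32 on chow and 0.22 ± 0.14 on HFD.

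Pygb (chromosome 2, 150786735 to 150831758, plus strand), the phosphorylase named for brain, separated the genotypes on HFD and not on chow. On chow it was at 151, 210 and 395 CPM in WT-Tg and 147, 356 and 488 CPM in D316A-Tg. On HFD it was at 174, 224 and 257 CPM in WT-Tg and 268, 293 and 406 CPM in D316A-Tg. The chow groups overlapped almost completely, whereas on HFD the lowest D316A-Tg library was above the highest WT-Tg library. Its log2 fold change was 0.29 ± 0.28 on chow and 0.51 ± 0.12 on HFD.

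The 3 PP1-targeting subunits differed from each other. Ppp1r3b (chromosome 8, 35375739 to 35388139, plus strand), the subunit first described in liver, was at 21.6, 31.6 and 86.3 CPM in WT-Tg and 29.9, 84.0 and 150 CPM in D316A-Tg on chow. On HFD it was at 21.5, 35.1 and 56.8 CPM in WT-Tg and 15.6, 24.0 and 57.1 CPM in D316A-Tg. The groups overlapped on each diet, and the median was the higher in D316A-Tg on chow and the lower in D316A-Tg on HFD. D316A-Tg over WT-Tg was at 0.92 ± 0.44 (log2) on chow and -0.33 ± 0.32 on HFD.

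Ppp1r3c (chromosome 19, 36731731 to 36736653, minus strand), also known as protein targeting to glycogen, was at 24.6, 43.3 and 150 CPM in WT-Tg and 52.7, 78.4 and 156 CPM in D316A-Tg on chow. On HFD it was at 43.1, 57.0 and 120 CPM in WT-Tg and 71.9, 130 and 413 CPM in D316A-Tg. Of the D316A-Tg libraries on HFD, 4 were above every WT-Tg library of that diet. The log2 fold change was 0.63 ± 0.41 on chow and 1.37 ± 0.40 on HFD, the larger of the pair. The library at 413 CPM was again D316A-Tg 7.

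Ppp1r3d (chromosome 2, 178411206 to 178414472, minus strand), another PP1-targeting subunit, had 7.82, 11.1 and 20.9 CPM in WT-Tg and 3.96, 10.5 and 18.9 CPM in D316A-Tg on chow. On HFD it had 27.1, 38.9 and 42.2 CPM in WT-Tg and 15.5, 18.2 and 22.1 CPM in D316A-Tg. The chow groups were mixed, while on HFD the highest D316A-Tg library was below the lowest WT-Tg library. The log2 fold change was -0.23 ± 0.36 on chow and -1.0 ± 0.12 on HFD, a mean of 36.1 ± 6.07 against 18.1 ± 2.35 CPM (SD, n = 6 each). In RefSeq, the span of the gene overlaps that of Fam217b on the other strand by 760 bases at its start. In GENCODE M21, 0 bases of the exons of Ppp1r3d overlap another gene. Fam217b itself was at 26.8 to 31.4 CPM in WT-Tg and at 16.5 to 26.5 CPM in D316A-Tg on HFD, a log2 fold change of -0.59 ± 0.11. The annotation used in counting is not given. Reads of the pair could not be told apart only where exons of both are shared in that annotation and strand was not used.

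**Figure D2:**
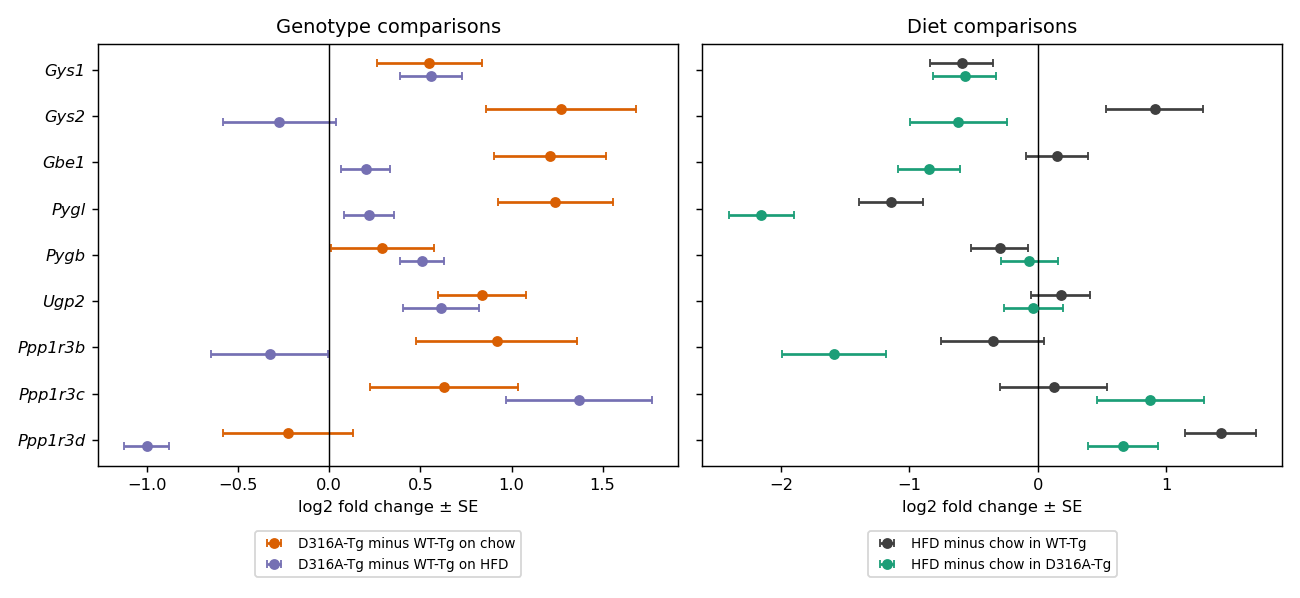
Log2 fold change ± SE of the 9 glycogen genes for the genotype comparisons (left) and for HFD against chow (right), from edgeR. On chow 8 of 9 genes lie above 0, on HFD Ppp1r3c lies highest and Ppp1r3d lowest, and Pygl lies lowest in both diet comparisons.

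On chow, D316A-Tg had the higher fitted level for 8 of the 9 genes, with Ppp1r3d the exception. A gene is called where the Benjamini-Hochberg adjusted p of edgeR's quasi-likelihood test over all genes is below 0.05. Gbe1 and Pygl were called as higher, 2 of 9, beside 8.54% of the 15249 genes tested, or 5.3% called as higher. The ranges of WT-Tg and D316A-Tg overlapped for all 9, and 3.51% of the genes tested had ranges that did not. The median log2 fold change of the 9 was 0.84 beside -0.07 over all genes tested. Because the genes were picked on these values, the counts and medians are not read further.

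The 2 calls on chow depended on which libraries were in the fit. Each was lost in 8 of the 12 fits that leave out 1 library, namely those without WT-Tg 1, 2, 3 or 4 and without D316A-Tg 7, 9, 10 or 12. In those fits the log2 fold change stayed between 1.04 and 1.23 for Gbe1 and between 1.02 and 1.25 for Pygl. Calls over all genes also fell in those fits, to between 0.901% and 2.73%, from 8.54% with no library left out. WT-Tg had 4 lymphocyte-rich libraries on chow and D316A-Tg had 2. Among the lymphocyte-rich libraries, the D316A-Tg to WT-Tg ratio of mean CPM was 1.71 for Gbe1, 1.9 for Pygl, 1.55 for Ugp2 and 1.62 for Ppp1r3c, and the 2 groups did not overlap for these genes. Among the other 6 libraries, with 2 of WT-Tg and 4 of D316A-Tg, the ratio was 2.04 for Gbe1, 1.97 for Pygl, 1.53 for Ugp2, 2.23 for Gys2 and 1.28 for Gys1, again without overlap. Pygb had ratios of 0.965 and 1.05, and its groups overlapped in each subset. In all, 5 of the 9 genes overlapped among the lymphocyte-rich libraries and 4 among the others. How many of all genes overlap in subsets this small was not computed, so the overlaps are not read further.

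With a term for lymphocyte-rich libraries in the fit, a setting chosen after seeing the data, the log2 fold change on chow was 0.87 for Gbe1, 0.92 for Pygl and 0.60 for Ugp2, and all 3 were called, beside 28.9% of all genes. Gys1 then stood at 0.22 and Pygb at -0.03. With the lymphocyte-rich libraries left out, Gbe1 was at 1.01 and Pygl at 0.96, both called, beside 15.3% of all genes, from 2 libraries against 4. With the muscle score of each library as a covariate they were at 1.36 and 1.40, and without the 3 most muscle-rich chow libraries (WT-Tg 4, 5 and 6) at 1.41 and 1.53, and in neither fit was any of the 9 called by edgeR, with 5 and 6 at an unadjusted p below 0.05. These fits called 0.925% and 0.158% of all genes. Other cell content also moved with genotype on chow. The 15 mature adipocyte genes summed to 22200 to 68700 CPM in WT-Tg and 29900 to 98500 CPM in D316A-Tg. The 9 brown and beige adipocyte genes, which include the uncoupling protein Ucp1, summed to 104 to 727 CPM in WT-Tg and 811 to 1620 CPM in D316A-Tg, with no overlap. By their mean log2 CPM the genotypes did overlap, with WT-Tg 2 at 4.83 and D316A-Tg 9 at 4.25. Ucp1 alone overlapped too, at 2.4 to 277 CPM in WT-Tg and 98.9 to 699 CPM in D316A-Tg. With the adipocyte score of each library as a covariate, Gbe1 stood at 0.76, Pygl at 0.83 and Ugp2 at 0.52, all called, and Pygb at -0.17. That fit called 19.7% of all genes. The part of the beige genes in the chow result was not tested.

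On HFD, 6 of the 9 genes had the higher fitted level in D316A-Tg. Pygb was called as higher and Ppp1r3d as lower, 2 of 9, beside 8.47% of the 14649 genes tested, or 4.51% called as higher and 3.96% as lower. The same 2 were the genes whose groups did not overlap, beside 3.42% of genes, of which 1.76% had D316A-Tg wholly above and 1.66% wholly below. The median log2 fold change of the 9 was 0.22 beside 0.01 over all genes tested. The call for Ppp1r3d was kept in each of the 12 fits that leave out 1 library. The call for Pygb was lost without WT-Tg 1, 2, 4 or 5 or D316A-Tg 7, 8, 9 or 11, at log2 fold changes of 0.43 to 0.53. The fits that lost it called 2.26% to 4.34% of all genes.

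On HFD 1 WT-Tg and 4 D316A-Tg libraries were lymphocyte-rich, so a comparison among these rests on a lone WT-Tg library. Among the others, 5 of WT-Tg and 2 of D316A-Tg, the D316A-Tg to WT-Tg ratio was 0.577 for Ppp1r3d and 1.28 for Pygb. Fitted without the lymphocyte-rich libraries, Ppp1r3d was at -0.79 and Pygb at 0.36, neither called, with 5 libraries against 2. That fit called 0 of 15131 genes. With the muscle score as a covariate, Ppp1r3c went from 1.37 to -0.13 and Ugp2 from 0.61 to -0.36, while Pygb stood at 0.46 and Ppp1r3d at -0.74, and none of the 9 was called by edgeR, with 1 at an unadjusted p below 0.05. In that fit 0 of all 14649 genes were called, with 882 at an unadjusted p below 0.05. Without the 6 libraries richest in muscle transcripts (WT-Tg 4, 5 and 6 on chow, D316A-Tg 7, 9 and 10 on HFD), Ppp1r3c on HFD stood at 0.71, Ugp2 at 0.13, Pygb at 0.39 and Ppp1r3d at -0.95, none called, from 6 libraries against 3. Here too 0 of all 15366 genes were called. On HFD the muscle sums of the genotypes did not overlap, and the scores overlapped only between WT-Tg 5 and D316A-Tg 12. What belongs to muscle content and what to genotype can therefore not be told apart there. Other cell markers also moved with genotype on HFD. From WT-Tg to D316A-Tg, median summed levels went from 760 to 418 CPM for the 9 endothelial genes, from 4260 to 2070 CPM for the 9 progenitor and fibroblast genes and from 1150 to 910 CPM for the 9 macrophage genes with counts, and their part in the result was not tested.

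**Figure D3:**
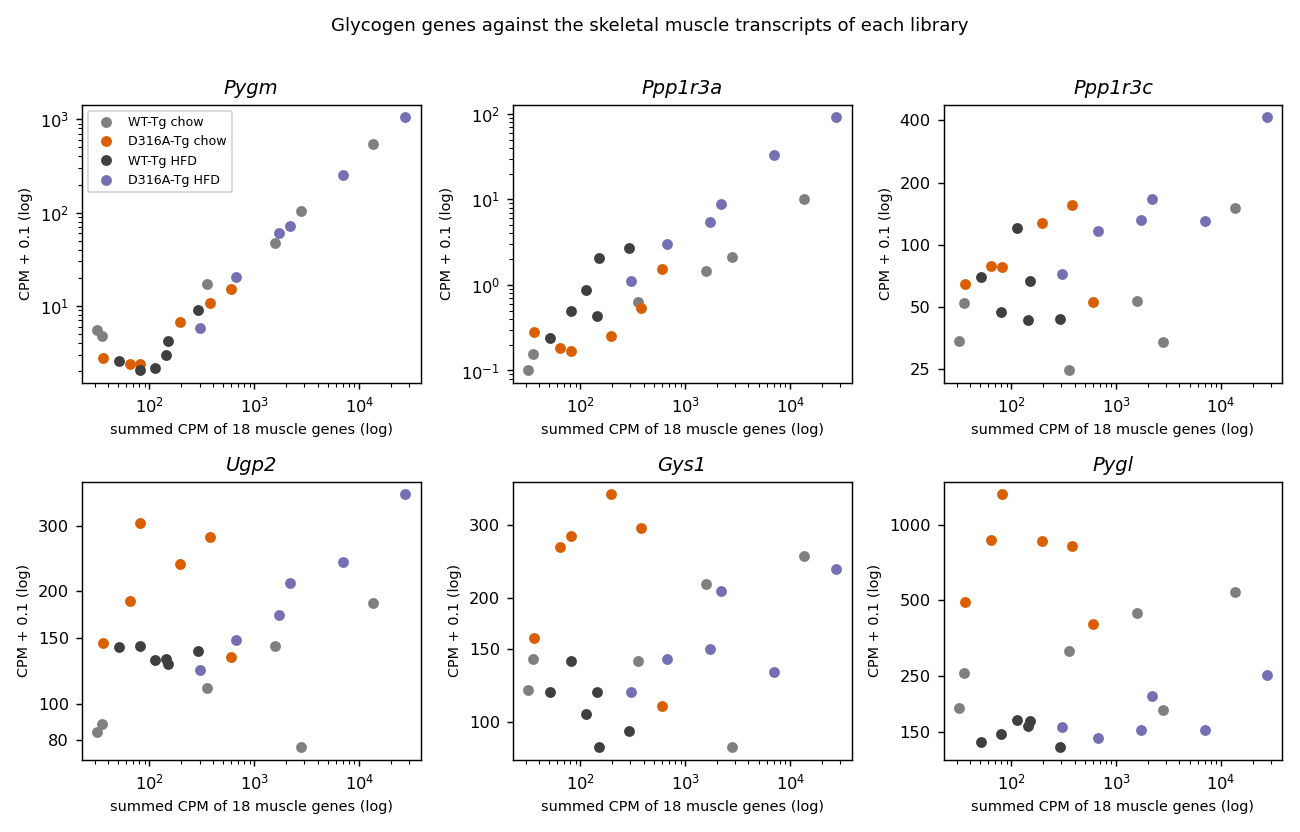
Level of 6 glycogen genes (CPM + 0.1, log axis) against the summed CPM of 18 skeletal muscle genes (log axis) in the 24 libraries, by group. Pygm and Ppp1r3a climb with the muscle genes across all groups, Ppp1r3c and Ugp2 are highest in the most muscle-rich library, and the D316A-Tg chow libraries stand above the others for Pygl at low muscle content.

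The D316A effect was then compared between the diets. The difference, the effect on HFD minus that on chow, was -1.53 ± 0.54 on the log2 scale for Gys2, -1.0 ± 0.34 for Gbe1, -1.01 ± 0.35 for Pygl and -1.24 ± 0.56 for Ppp1r3b. It was 0.75 ± 0.59 for Ppp1r3c and -0.76 ± 0.38 for Ppp1r3d. By edgeR 0 of 9 were called, beside 12.9% of the 16072 genes tested, and 4 had an unadjusted p below 0.05. DESeq2 called 3 of the 9, beside 18.7% of all genes, and limma voom with quality weights called 6, beside 64.2%. The number called thus depended on the tool, for the 9 as for all genes.

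HFD and chow libraries of the same genotype differed more, within the limits stated for that comparison. In WT-Tg, 4 of 9 genes were called, beside 60.4% of the 16072 genes tested, or 25.9% called as higher and 34.5% as lower on HFD. Ppp1r3d was higher on HFD at 1.43 ± 0.28 and Gys2 at 0.91 ± 0.38, while Pygl was lower at -1.14 ± 0.25 and Gys1 at -0.59 ± 0.24. The diet groups did not overlap for Gys2, Pygl and Ppp1r3d, 3 of 9, beside 34.4% of all genes, with 19% higher and 15.4% lower. The calls for Gys1 and Gys2 were each lost on leaving out single libraries, Gys1 in 8 of 12 fits (without WT-Tg 2, 5 or 6 on chow or 1, 2, 3, 5 or 6 on HFD, at -0.61 to -0.44) and Gys2 in 7 of 12 (without WT-Tg 3, 4 or 6 on chow or 2, 3, 4 or 6 on HFD, at 0.74 to 0.95). The fits that lost a call called 54.2% to 63.4% of all genes.

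In D316A-Tg, 3 of 9 genes were called, beside 37.2% of genes, and all 3 were lower on HFD, beside 19.3% of genes called as lower. Pygl stood at -2.15 ± 0.26, Ppp1r3b at -1.59 ± 0.41 and Gbe1 at -0.85 ± 0.24. The diet groups did not overlap for Pygl alone of the 9, beside 16% of all genes, or 8.13% wholly lower. Ppp1r3c was at 0.88 ± 0.42 and Ppp1r3d at 0.66 ± 0.27, neither called. The diet comparisons of the 2 genotypes share no library, but each shares its libraries with the genotype comparisons above.

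Levels of different genes were compared per length, as CPM per kilobase of merged exons, mean ± SD of 6 libraries. In WT-Tg on chow the order began with Pygb at 53.4 ± 21, Pygl at 46.4 ± 20.9 and Ugp2 at 37.3 ± 13.9, which did not differ beyond their spread. In D316A-Tg on chow Pygl led at 115 ± 47.2, before Ugp2 at 70.0 ± 23.1 and Pygb at 68.5 ± 25.7. In WT-Tg on HFD Pygl was sixth at 21.9 ± 2.21, behind Pygb at 45.3 ± 6.4 and Ugp2 at 44.2 ± 1.94, with ranges that did not overlap either of these. In D316A-Tg on HFD Ugp2, Pygb and Ppp1r3c led at 68.3 ± 28.2, 65.1 ± 10.6 and 63.0 ± 44.9, overlapping each other. Gys1 was above Gys2 in 3 of the groups and below it in WT-Tg on HFD, at 23 ± 4.02 against 32.4 ± 7.47, with overlapping ranges in each. Ppp1r3b and Ppp1r3d took the last 2 places in all 4 groups, between 3.53 ± 1.92 and 13.7 ± 8.05 CPM per kilobase.

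The genes also varied together within groups. After subtracting each group's mean log2 CPM, Gys1 and Gbe1 had a Pearson correlation of 0.94 over the 24 libraries, Gys1 and Pygb 0.93, and Gbe1 and Pygl 0.91. Ppp1r3b was the least like the enzymes, with 0.27 to 0.48, and was closest to Ppp1r3d at 0.77. All of these values share library depth and the cell content of each library. The most like genes were then sought by the same measure among 10730 genes with a mean of at least 5 CPM. Gys1 was most like Trap1 and Clpb, which encode mitochondrial chaperones, and Echs1, a fatty acid oxidation enzyme, at 0.98 each. Gbe1 was most like Slc25a35 at 0.97 and Pygl most like Agpat3 at 0.94, and both lists also held Pdha1, a pyruvate dehydrogenase subunit, at 0.96 and 0.94. Pygb was most like Plin1, the lipid droplet coat protein, and Cebpa, an adipocyte transcription factor, at 0.97 each. Prkaa2, the α2 catalytic subunit of AMPK, was first for Ugp2 at 0.92 and followed Smarcd3 (0.88) for Ppp1r3c at 0.85. Gys2 was most like Ccdc3 at 0.88, Ppp1r3b like Zfp467 at 0.82, and Ppp1r3d like its neighbour Fam217b at 0.91.

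The rest of the pathway was described with 26 other glycogen genes, all present in both tables. They hold the muscle phosphorylase Pygm, the glycogenin primer Gyg, phosphorylase kinase, glycogen synthase kinase 3, the PP1 catalytic subunits, further targeting subunits such as the muscle form Ppp1r3a, and enzymes of glycogen quality control and glucose release. This list too was chosen with earlier results of these data known, so its counts, shares and p-values are descriptions. On chow 2 of the 23 tested (8.7%) rose in D316A-Tg and 0 fell by edgeR, close to the 8.54% called among all genes. Gyg went from 68.9, 77.0 and 134 CPM to 109, 156 and 246 CPM, at 0.81 ± 0.20 with an adjusted p of 0.0344. Ppp1cb, a PP1 catalytic subunit, went from 82.1, 100 and 132 CPM to 125, 151 and 210 CPM, at 0.57 ± 0.13 with an adjusted p of 0.0300. The ranges overlapped for both. The call for Gyg was lost without WT-Tg 1, 2, 3 or 4 or D316A-Tg 7, 9, 10 or 12 (0.65 to 0.82), and that for Ppp1cb without those or WT-Tg 5 (0.47 to 0.60). These fits called 0.901% to 6.71% of all genes. The median log2 fold change of the 23 on chow was 0.07.

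On HFD 4 of 25 pathway genes (16%) rose in D316A-Tg and 0 fell, beside 8.47% called among all genes and 4.51% called as higher. Pygm went from 1.93, 2.67 and 8.92 CPM in WT-Tg to 5.71, 66.1 and 1050 CPM in D316A-Tg, a log2 fold change of 6.00 ± 1.20 with an adjusted p of 0.0216 in edgeR. Ppp1r3a rose by 4.48 ± 1.12 (adjusted p = 0.0346) and Phkg1, the muscle catalytic subunit of phosphorylase kinase, by 2.91 ± 0.69 (adjusted p = 0.0291). Epm2a, the glycogen phosphatase laforin, went from 11.2, 14.5 and 16.4 CPM to 17.6, 21.7 and 35.0 CPM, at 0.70 ± 0.15 (adjusted p = 0.0246). Its groups did not overlap, which held for 1 of the 26 and for 3.42% of all genes tested. Pygm at 1050 CPM and Ppp1r3a at 90.8 CPM were highest in D316A-Tg 7, the library with 27400 CPM of muscle genes. Phkg1 on HFD was at 2.71 to 5.44 CPM in WT-Tg and 2.69 to 95.8 CPM in D316A-Tg. In D316A-Tg on chow it was at 8.87 to 41.7 CPM. The muscle genes summed to 35.8 to 602 CPM in that chow group, beside 304 to 27400 CPM in D316A-Tg on HFD. Muscle content and genotype cannot be told apart on HFD. With the muscle score as a covariate, Pygm stood at -0.61, Ppp1r3a at -1.62, Phkg1 at -0.93 and Epm2a at 0.12, none called. Without WT-Tg 1 or 6 or D316A-Tg 9 the call for Epm2a was lost (0.64 to 0.71). The call for Phkg1 was lost without WT-Tg 1, 2, 4, 5 or 6 or D316A-Tg 9 (2.84 to 3.06), and that for Ppp1r3a without those or D316A-Tg 7 (3.30 to 5.01). The fits that lost any of these calls called 2.19% to 4.34% of all genes. On chow Pygm was at -4.15, with an adjusted p of 0.0511 in edgeR. The chow libraries with the most muscle transcripts were WT-Tg. The part of muscle content in the sign on either diet was not tested.

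**Figure D4:**
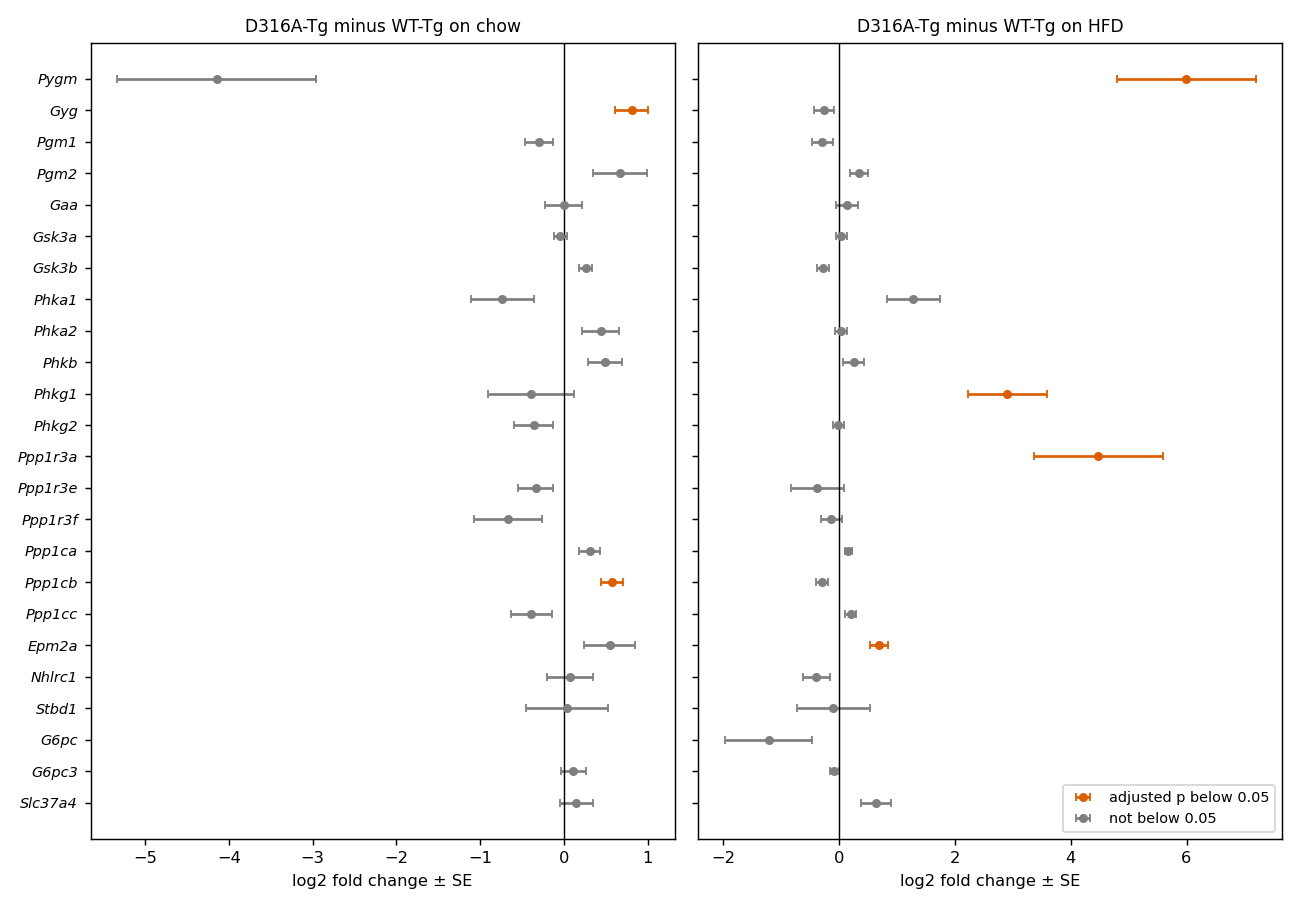
Log2 fold change ± SE of D316A-Tg over WT-Tg for other glycogen pathway genes on chow (left) and HFD (right), with separate horizontal scales. Genes below an adjusted p of 0.05 are coloured, and Pygm lies at -4.15 on chow and at 6.00 on HFD. Genes too low to test on a diet have no point there.

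The D316A effect differed between the diets for 7 of 25 pathway genes (28%) by edgeR, beside the 12.9% of all genes. Ppp1cb had a difference of -0.84 ± 0.16 (adjusted p = 0.00384), Gsk3b, a kinase that phosphorylates glycogen synthase, -0.52 ± 0.12 (adjusted p = 0.0108) and Gyg -1.05 ± 0.26 (adjusted p = 0.0143). The muscle genes Pygm, Ppp1r3a and Phkg1 had differences of 10.15, 6.91 and 3.32. With the muscle score as a covariate the values were -0.87 for Ppp1cb, -0.47 for Gsk3b and -1.36 for Gyg, whereas Pygm was at 2.42, Phkg1 at 0.68 and Ppp1r3a at -1.80, and 0 of 25 were called, with 8 at an unadjusted p below 0.05. That fit called 0.28% of all genes. Without the 6 muscle-rich libraries, Ppp1cb stood at -0.96, Gsk3b at -0.59 and Gyg at -1.59, all 3 called, beside 17.8% of all genes.

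Between the diets, Gsk3b and the PP1 catalytic subunits Ppp1cb and Ppp1cc were higher on HFD in both genotypes, with no overlap between chow and HFD libraries. In each genotype these were the only 3 of the 26 wholly higher on HFD, and Phkg1 was wholly lower in WT-Tg. Of the 26, 22 overlapped in WT-Tg and 23 in D316A-Tg. Of all genes tested, 34.4% in WT-Tg and 16% in D316A-Tg did not overlap. Gsk3b went from 35.9, 41.4 and 52.1 CPM on chow to 119, 126 and 159 CPM on HFD in WT-Tg, at 1.55 ± 0.09 (adjusted p = 1.35e-12 in edgeR), and rose by 1.03 ± 0.09 in D316A-Tg (adjusted p = 1.74e-09). Ppp1cb rose by 1.68 ± 0.12 in WT-Tg (adjusted p = 5.06e-11) and by 0.84 ± 0.12 in D316A-Tg (adjusted p = 4.24e-06). Ppp1cc rose by 0.77 ± 0.19 (adjusted p = 0.00161) and by 1.38 ± 0.19 (adjusted p = 5.12e-06). Of the 25 pathway genes tested, 5 rose and 4 fell in WT-Tg (36%, beside 60.4% of all genes), among the latter Pygm at -5.01, Phkg1 at -2.94 and Phkg2 at -0.93. In D316A-Tg 6 rose and 2 fell (32%, beside 37.2% of all genes), with Pygm at 5.14, Ppp1r3a at 5.74 and Phka1 at 1.42 among the former, and Phka1 at 0.76 and not called without D316A-Tg 7 on HFD. Exons of Ppp1cb overlap a gene on the same strand over 17.5% of their length. Those of Phkg2 and Phkg1 overlap genes on the other strand over 21.9% and 9.7%.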

How the data were processed

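RNA of inguinal white fat was sequenced from TruSeq stranded mRNA libraries, per the labels' protocols. The authors deposited raw read counts per gene in 2 tables, one for each diet. Per the submitters' processing notes the tools included STAR 2.4.1 and DESeq2, with build mm10. Counting tool, annotation and use of strand: not given in the sources used here. Replicate libraries differed beyond sampling noise (lowest chi-square per degree of freedom 14.4).

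Genes were joined by identifier, and positions and exon lengths came from GENCODE M21 on GRCm38. Tests used edgeR 4.0.16 in R 4.3.3 (robust quasi-likelihood, TMM, filterByExpr, Benjamini-Hochberg over all genes, called below 0.05), within a diet for genotype and over 24 libraries otherwise. Log2 CPM used a prior count of 2. At these depths precision is limited by how libraries differ, more than by counting error. The code was tested on simulated data. The 9 genes, the 26 pathway genes, the markers and the tests were chosen with earlier results of these data known. Named genes are the 9, Pygm, Ppp1r3a, up to 6 called pathway genes per comparison by adjusted p, and genes among the 3 most like each of the 9. Alternatives were RLE and upper-quartile scaling, DESeq2 1.42.0, limma 3.58.1 voom with quality weights, no filter, no robust step, a minimum mean count of 50, a single fit of all libraries, marker scores as covariates, a block for the replicate number, and fits with 1 library left out. Replicate numbers of different diets name separate libraries. A gene that the naming rule also covers is not reported here.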

Additional observations from a re-analysis of the deposited data

Results flagged for a closer look

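For 7 of the 25 pathway genes tested (28%) the difference between the D316A effect on HFD and on chow was called in edgeR's quasi-likelihood test. Of all 16072 genes tested, 12.9% were called. With the muscle score as a covariate 0 of the 25 were called, beside 0.28% of all genes. Without that covariate the difference on the log2 scale was 10.15 for Pygm (adjusted p = 0.00283), -0.84 for Ppp1cb (0.00384), -0.52 for Gsk3b (0.0108), 6.91 for Ppp1r3a (0.0121), -1.05 for Gyg (0.0143), 3.32 for Phkg1 (0.0183) and 2.03 for Phka1 (0.0336). Phka1, a regulatory subunit of phosphorylase kinase in muscle, is outside the rule for named genes in that comparison and was chosen after its values were seen.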

How the results depend on the processing

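Counts of genes called moved with the processing as follows, given first for the 9 genes and then for the other pathway genes. For D316A-Tg against WT-Tg on chow (2 and 2), DESeq2 called 4 and 5, voom 8 and 18, and the single fit of 24 libraries 4 and 5. Of all genes tested, these fits called 19.5%, 71% and 22.5%. On chow, 0 and 0 were called with no filter (4 and 7 at an unadjusted p below 0.05), with a muscle covariate (5 and 7) and without the 6 muscle-rich libraries (6 and 10), while 5 pathway genes were called with the B lymphocyte score or the term for lymphocyte-rich libraries. The fits with 0 and 0 called 2.13%, 0.925% and 0.158% of all genes, and the lymphocyte fits 24.6% and 28.9%. On HFD (2 and 4), DESeq2 called 5 and 9 and voom 5 and 9, the single fit called 1 of the 9, and no filter left 2 pathway genes. The shares of all genes were 19.1%, 29.4%, 5.49% and 3.22%. There, 0 and 0 were called with the muscle score (1 and 1 at an unadjusted p below 0.05), without lymphocyte-rich libraries (2 and 9) and without muscle-rich libraries (2 and 8), and 1 and 0 with the B lymphocyte score or the lymphocyte term. Each fit with 0 and 0 called 0% of all genes, and the lymphocyte score and term called 0.171% and 0.539%. For the difference between diets (0 and 7), RLE scaling called 1 of the 9, DESeq2 3, voom 6 and 14, the adipocyte score 3, fits without lymphocyte-rich libraries 2 and without muscle-rich libraries 3, and the muscle score 0 pathway genes. In that order, 13.5%, 18.7%, 64.2%, 21.1%, 9.39%, 17.8% and 0.28% of all genes were called. For HFD against chow in WT-Tg (4 and 9), voom called 7 and 17, and no filter, the muscle score and leaving out muscle-rich libraries each called 2 of the 9. Over all genes the shares called were 78.4%, 39.5%, 58.2% and 61.2%. In D316A-Tg (3 and 8) the B lymphocyte and adipocyte scores each called 5 of the 9, leaving out lymphocyte-rich libraries 6, and the muscle score 4 pathway genes. These fits called 53%, 56.4%, 52.3% and 27.1% of all genes. The cause was not tested.

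Leaving out 1 library gave 0 to 4 and 0 to 5 calls on chow, 1 to 5 and 1 to 8 on HFD, 0 to 4 and 6 to 8 for the difference, 2 to 4 and 9 to 12 for the diets in WT-Tg, and 3 to 4 and 7 to 9 in D316A-Tg. Calls over all genes moved in the same fits. In that order they ran from 0.901% to 21.9%, 2.19% to 26.3%, 8.4% to 26.5%, 54.2% to 63.4% and 32.5% to 38.5%. Of the values called as reported, 4 changed direction, all with the muscle score: Pygm (-0.61), Phkg1 (-0.93) and Ppp1r3a (-1.62) on HFD and for Ppp1r3a (-1.80) in the difference. Of the other values of single genes, 157 lost a call, 92 gained one, 14 not called as reported moved beyond the spread between libraries, and 1775 did none of these. Among 1047 values of genes not called as reported, 61 changed sign, such as Ppp1r3c (-0.13) and Ugp2 (-0.36) on HFD with the muscle score and Pygb (-0.17) on chow with the adipocyte score. The replicate block called 2 of the 9 in WT-Tg and 4 in D316A-Tg, and 5 pathway genes in D316A-Tg. It called 55.8% of all genes in WT-Tg and 29.9% in D316A-Tg. Same-numbered libraries were not paired by design, and 4 of the 12 chow libraries had their own number as best match. The lymphocyte term and both subsets of libraries were chosen after seeing the data.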
